A study of Homo sapiens with 6 samples.

Results

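The transcripts examined here were 10 genes of the keratin cytoskeleton and of cell-cell junctions, KRT7, KRT8, KRT18, KRT19, CLDN1, TJP1, OCLN, CDH2, JUP and DSP. They were chosen by name, and each matched 1 of the 62703 rows of the deposited expression table. Total RNA was sequenced from 786-O, a cell line from a human renal carcinoma of the clear cell type, in 2 groups of 3 libraries. The control libraries are titled NC and carry the genotype WT. The others carry the genotype "OGT overexpressed", where OGT encodes O-GlcNAc transferase, which puts single sugars on nuclear and cytosolic proteins. All cells were grown in RPMI-1640 medium with fetal bovine serum. The sources used here do not give the vector, the promoter driving OGT, or whether the overexpressing line was a clone or a pool. Separate cultures are not stated for the replicates. The p-values therefore measure only the spread between these libraries, which may be technical.

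Keratins are the intermediate filament proteins of epithelial cells and assemble as pairs of a type II chain, such as KRT7 or KRT8, with a type I chain, such as KRT18 or KRT19. These filaments are anchored at desmosomes, where desmoplakin (DSP) and plakoglobin (JUP) link desmosomal cadherins to keratin. Tight junctions seal the space between cells through claudins and occludin, which the scaffold ZO-1, encoded by TJP1, ties to actin. Adherens junctions join cells through classical cadherins, of which N-cadherin (CDH2) is present in the proximal tubule, the segment from which clear cell renal carcinoma is thought to arise.

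Values are TPM, a measure scaled by transcript length and by library total, so levels of different genes can be compared within a library. The library totals ranged from 993936 to 996952 TPM. This unit holds no read number, so the depth is unknown and counting intervals are left out. OGT itself lay between 22.57 and 23.62 TPM in the control libraries and between 270.87 and 352.92 TPM in the overexpressing ones. The renal lineage gene PAX8 was detected in every library (124.78 to 209 TPM), while CA9, which many clear cell tumours express, reached at most 0.85 TPM. Of 12 markers of the line 10 passed the filter on low values given below. None of 9 fibroblast and 8 endothelial markers passed it. Of 8 leukocyte markers 1 passed, the lysosomal gene CD68. PTPRC did not pass, but was listed at 12.23 TPM in control replicate 1. The summed leukocyte markers lay between 67.27 and 73.45 TPM in control and between 101.85 and 119.87 TPM in OGT libraries, of which CD68 made up 60.59 to 67.17 and 101.55 to 119.57 TPM, and MS4A1 was listed at 0 throughout. In such bulk samples fewer cells of a type and less RNA per cell cannot be told apart.

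Each change is the OGT mean minus the control mean of log2(TPM + 1), a scale on which changes of low genes come out too small. They were tested with limma, with p-values adjusted by Benjamini-Hochberg over all 12645 genes that reached 1 TPM in at least 3 libraries. Of the 10 genes 8 passed that filter. CLDN1, TJP1 and CDH2 rose, KRT18 and KRT19 fell, and KRT7, KRT8 and OCLN were not called at a threshold of 0.05. JUP and DSP were too low to be tested. Among all tested genes 48.8% were called, 39.1% higher and 9.7% lower, so a count of 5 in 8 was near the background. The 8 genes had a median log2 change of 0.018, against 0.30 for all tested genes. JUP and DSP are not in that median. In 6 of the 8 the 2 groups did not overlap, which was the case for 58.6% of tested genes. The plot of the levels in each library shows keratins at the top of the range, junction genes at low to middle levels, and desmosomal genes at the bottom.

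**Figure D1:**
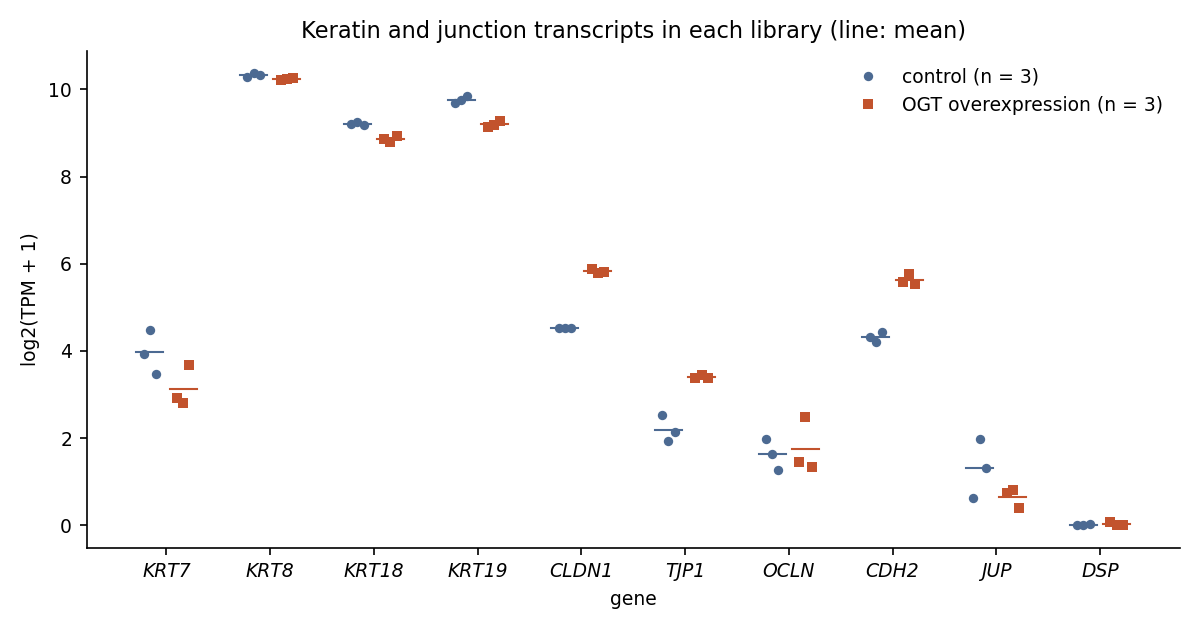
Levels of the 10 keratin and junction genes in each library, as log2(TPM + 1) on the vertical axis. Circles are the 3 control and squares the 3 OGT libraries, and the line is the group mean. CLDN1, TJP1 and CDH2 lie higher, and KRT8, KRT18 and KRT19 lower, in every OGT library than in any control library.

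KRT8 was the most abundant of the 10 genes in both groups, followed by KRT19 and KRT18, and the ranges of these neighbours did not overlap within a group. KRT8 ranked 118 of the tested genes in control cells, KRT19 172 and KRT18 238, and in OGT cells they ranked 125, 248 and 311. KRT7 stood far below them. In control cells its range overlapped that of CDH2, the next gene above it, and in OGT cells that of TJP1.

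KRT19 (ENSG00000171345, chr17:41523617-41528308, minus strand; coordinates here are those of GENCODE release 29 on GRCh38), a type I keratin that lacks most of the usual tail domain, had the largest fall among the called keratins. It measured 821.66, 869.73 and 920.59 TPM in the control libraries and 565.48, 581.63 and 619.23 TPM in the OGT libraries. Every OGT library lay below every control library. The means were 871 ± 49.5 and 589 ± 27.6 TPM (SD, n = 3), with a limma log2 change of -0.56 (SE 0.0543, adjusted p = 3.3e-04).

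KRT18 (ENSG00000111057, chr12:52948871-52952901, plus strand) encodes the type I partner of KRT8 in simple epithelia. It measured 591.35, 605.34 and 581.09 TPM in control and 464.39, 440.24 and 487.87 TPM in OGT libraries. The groups did not overlap, and the mean fell by 21.7%, and limma gave -0.35 on the log2 scale (SE 0.0459, adjusted p = 0.00103).

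KRT8 (ENSG00000170421, chr12:52897187-52949954, minus strand) measured 1249.75, 1322.73 and 1295.97 TPM in control and 1185.96, 1212.85 and 1225.38 TPM in OGT libraries. These ranges did not overlap, but the groups were close. The means were 1289 ± 36.9 and 1208 ± 20.1 TPM, and the log2 change of -0.094 missed the threshold (95% interval -0.17 to -0.01, limma adjusted p = 0.0547). Control replicate 1 decided this call: with that library left out KRT8 passed (log2 change -0.12, limma adjusted p = 0.0319), where 45.2% of tested genes were called. KRT7 (ENSG00000135480, chr12:52232520-52252186, plus strand), the other type II keratin, measured 14.33, 21.43 and 10.15 TPM in control and 6.54, 5.99 and 11.79 TPM in OGT libraries. OGT replicate 3 lay above control replicate 3, so the groups overlapped. The log2 change of -0.84 was not called (95% interval -1.60 to -0.08, limma adjusted p = 0.0676). With control replicate 3 left out KRT7 passed (log2 change -1.08, limma adjusted p = 0.0344, 43.5% of genes called). With OGT replicate 3 left out it passed too (-1.11, adjusted p = 0.0279, 45.1% called).

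In the values as deposited, the composition of the keratin pool shifted towards KRT8. Its share of the summed TPM of the 4 keratins was 46.6% ± 0.39 in control and 53.3% ± 0.933 in OGT cells (SD, n = 3). The share of KRT19 went from 31.4% ± 1.17 to 25.9% ± 0.485, and the KRT18 shares, 21.4% ± 0.698 and 20.5% ± 0.698, overlapped between the groups. The ratio of KRT8 to KRT18 lay between 2.11 and 2.23 in control and between 2.51 and 2.75 in OGT libraries, without overlap. The ratio of type II (KRT7 and KRT8) to type I (KRT18 and KRT19) was 0.892 ± 0.0209 in control and 1.16 ± 0.0377 in OGT cells. The summed TPM of the 4 keratins was 2768 ± 79 in control and 2269 ± 65.7 in OGT cells. The groups did not overlap in either ratio or in this sum. Each of these 3 quantities gave p = 0.1 in a two-sided exact permutation test over the 6 libraries, which is the smallest p that 3 against 3 allows, and p = 0.1 after adjustment over 4 such tests. Shares and ratios were not corrected for GC and length. After the correction described below, with the longest transcripts, the log2 changes of KRT8, KRT18 and KRT19 were closer together, at -0.24, -0.29 and -0.38. With principal transcripts, also described below, they lay further apart than that, at -0.11, -0.23 and -0.39.

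KRT8 and KRT18 are neighbours on chromosome 12, and their annotated extents share 1084 bases (chr12:52948871-52949954) on opposite strands. The strand of the libraries is not stated, so reads from that stretch cannot be assigned to either gene with certainty. Both genes also have many processed copies: the table lists 51 KRT8 and 67 KRT18 pseudogenes. Their summed values were small, 2.73 ± 0.784 TPM in control and 3.1 ± 1.02 TPM in OGT cells for KRT8, which is 0.212% and 0.257% of the parent gene. For KRT18 they came to 0.0731% and 0.0811% of the parent. Adding them left the log2 difference of the KRT8 to KRT18 ratio at 0.26. KRT8P12 (1.85 and 2.07 TPM) was the one pseudogene whose group mean reached 1 TPM. The 5 KRT19 pseudogenes were listed at 0, and the antisense transcript KRT7-AS reached at most 0.15 TPM.

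Among 51 other keratin genes 9 were tested, 3 fell and 0 rose (limma, 0 also at an unadjusted p below 0.05), with a median log2 change of -0.27. For this list and those below, the shares over all tested genes were 39.1% higher and 9.7% lower, with a median of 0.30. KRT80, a type II keratin of differentiating epithelia, fell from 63.5 ± 2.38 to 52.5 ± 2.32 TPM (log2 change -0.27, limma adjusted p = 0.0106). KRT15 and KRT79 fell as well (log2 changes -0.43 and -0.41, limma adjusted p = 0.0428 and 0.048). KRT15 was no longer called when control replicate 2, control replicate 3, OGT replicate 2 or OGT replicate 3 was left out (adjusted p from 0.0923 to 0.13). KRT79 was not called when control replicate 1, control replicate 3 or any OGT replicate was left out (adjusted p from 0.063 to 0.131). The count that fell was 1 when control replicate 3, OGT replicate 2 or OGT replicate 3 was left out. The most abundant gene of this list, the hair keratin KRT81, was 141 ± 10.1 and 135 ± 8.26 TPM and was not called. Its reads are uncertain, because KRT81 and KRT86 are near-identical. Of 12 tested genes for other intermediate filaments and cytolinkers 4 rose and 1 fell (2 fell without control replicate 1), with a median of 0.23. Vimentin (VIM), the filament protein of mesenchymal cells, rose from 1872 ± 103 to 2773 ± 10.1 TPM (log2 change 0.57, limma adjusted p = 1.46e-04). In OGT cells VIM thus stood above the summed keratins (2222.37 to 2344.27 TPM), whereas in each control library it stood below them (2677.09 to 2819.23 TPM). The nuclear lamin gene LMNA fell from 1346 to 1137 TPM (-0.24), and the actin and microtubule linker MACF1 rose from 16.6 to 33.6 TPM (0.98). The synemin gene SYNM rose from 0.813 to 2.37 TPM (0.89). SYNM lay below 1 TPM in every control library, so it passed the filter only through the OGT libraries. LMNB2 rose by 0.28, a call that depended on OGT replicates 1 and 2 (adjusted p = 0.0601 and 0.0605 without each), and its change was -0.11 after median centring.

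Among tight junction genes, CLDN1 (ENSG00000163347, chr3:190305701-190322475, minus strand), encodes a barrier-forming claudin and rose. It measured 21.91, 22.04 and 21.88 TPM in control and 57.58, 54.64 and 54.73 TPM in OGT libraries. The groups lay far apart, with a 2.54-fold higher mean and a limma log2 change of 1.30 (SE 0.0624, adjusted p = 4.21e-05). This change was larger than that of 96.1% of tested genes. That rank takes no account of GC content: genes of at most 45% GC, among them CLDN1, had a median change of 0.70. After the GC and length correction described below the change of CLDN1 was 0.62. CLDN1 made up 53.9% ± 4.84 of the summed TPM of the claudins listed in control cells, with a highest value of 59.3%. In the OGT libraries its share was 66.5%, 65.7% and 55.04%. Only OGT replicate 3 lay inside the control range, and in that library CLDN18 was listed at 20.38 TPM, against at most 0.06 TPM in the others.

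TJP1 (ENSG00000104067, chr15:29699367-29968865, minus strand) encodes ZO-1, the scaffold between claudins, occludin and actin. It measured 4.73, 2.82 and 3.39 TPM in control and 9.35, 9.85 and 9.35 TPM in OGT libraries. The OGT libraries were nearly equal and all higher, and TJP1 rose by 1.20 on the log2 scale (SE 0.179, limma adjusted p = 0.00183). HMGN2P5, a pseudogene on the opposite strand inside the TJP1 gene, had means of 3.62 TPM in control and 3.09 TPM in OGT cells, and reads inside it cannot be assigned to a strand.

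OCLN (ENSG00000197822, chr5:69492292-69558104, plus strand) encodes occludin, a membrane protein of the tight junction strands. It measured 2.93, 2.09 and 1.41 TPM in control and 1.73, 4.55 and 1.53 TPM in OGT libraries. OGT replicate 2 was the highest of the 6 and the remaining OGT libraries lay within the control range. The log2 change was 0.13 (95% interval -0.70 to 0.96, limma adjusted p = 0.785), an interval that covers changes in either direction. Without OGT replicate 2 it was -0.23 and without control replicate 3 it was -0.048. Occludin has a partial copy, OCLNP1, which was listed at 1.15 TPM in OGT replicate 2 and at 0 in every other library.

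The stretches before the annotated starts of CLDN1 and TJP1 are shown because these were the tight junction genes that rose. RefSeq (GRCh38.p14) promoters were matched for 7 of the 10 genes, KRT8, CLDN1, TJP1, OCLN, CDH2, JUP and DSP, and not for KRT7, KRT18 and KRT19. Where a gene has several starts, the one furthest upstream was used, and the start used by these cells is not known. The 250 bases before the start were searched on both strands for the E-box CACCTG bound by SNAI and ZEB factors, the hypoxia response cores ACGTG and GCGTG, and the AP-1 motif TGANTCA. Matches are in capitals, each sequence runs 5′ to 3′ on the minus strand, and bases inside the gene's GENCODE extent are left out.
CLDN1, chr3:190322476-190322696: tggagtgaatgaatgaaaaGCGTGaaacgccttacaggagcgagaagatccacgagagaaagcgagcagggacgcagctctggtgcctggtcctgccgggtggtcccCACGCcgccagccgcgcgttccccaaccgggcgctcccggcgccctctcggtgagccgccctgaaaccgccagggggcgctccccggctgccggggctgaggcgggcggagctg
TJP1, chr15:29969050-29969299: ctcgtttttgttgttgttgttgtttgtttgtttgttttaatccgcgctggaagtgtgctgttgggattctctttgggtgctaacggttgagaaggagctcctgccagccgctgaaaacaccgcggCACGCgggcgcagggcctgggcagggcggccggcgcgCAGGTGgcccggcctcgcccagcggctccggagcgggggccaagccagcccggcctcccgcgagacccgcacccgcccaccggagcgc
CLDN1 held GCGTG on 1 strand and its reverse complement CACGC at another place, 143 to 139 bases before the start. TJP1 held CACGC 125 to 121 bases before the start and CAGGTG, the reverse complement of the E-box, 88 to 83 bases before it. OCLN held 1 E-box and DSP 2, CDH2 and JUP held 1 GCGTG core each, and KRT8 had no match. No motif overlapped another in these genes. In the same window CACCTG was held by 17.5% of 35116 RefSeq promoters, ACGTG by 18.5%, GCGTG by 32.2% and TGANTCA by 6.57%. These matches describe letters only.

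Of 22 other claudins 3 were tested, with a median of 0.48, and 1 rose, CLDN12, from 3.59 ± 1.15 to 8.73 ± 0.971 TPM (log2 change 1.11, limma adjusted p = 0.00506). CLDN15, the most abundant of them, was 9.9 ± 1.77 and 12.8 ± 0.82 TPM and was not called (0.35, adjusted p = 0.0897). Of 39 other tight junction and polarity genes 25 were tested, 13 rose and 4 fell, with a median of 0.44. All tested genes had a median of 0.30, with 39.1% called higher and 9.7% lower. The polarity scaffold DLG1 rose from 1.72 ± 0.251 to 6.21 ± 0.774 TPM (log2 change 1.41), and PRKCI, which encodes an atypical protein kinase C, rose from 1.05 to 3.5 TPM (1.13). The angiomotin family gene AMOTL2 rose from 29.7 to 52.8 TPM (0.81), and YBX3, whose product binds ZO-1, rose from 84.5 to 121 TPM (0.51). PALS1 (0.99), PATJ (1.01) and PARD3 (0.63), polarity scaffolds mentioned after their values were seen, rose too (limma adjusted p = 0.0048, 0.0136 and 0.0029). None of them was still called after the GC and length correction described below (limma adjusted p from 0.31 to 0.429). PALS1 lay between 0.85 and 1.02 TPM in control libraries, PATJ between 0.49 and 1.04 TPM, and PRKCI between 0.98 and 1.13 TPM. MPDZ, which also rose, lay between 0.45 and 0.52 TPM there. These genes passed the filter only through the OGT libraries, and they are part of the 13 and of the median. The 4 that fell were LSR, CRB3, PARD6A and PRKCZ. LSR, which encodes the tricellular junction protein angulin-1, fell from 21.5 ± 3.2 to 10.1 ± 1.92 TPM (log2 change -1.03, limma adjusted p = 0.00267). CRB3, the apical Crumbs protein, fell from 4.18 ± 0.689 to 1.18 ± 0.852 TPM (-1.32), PARD6A from 2.09 to 0.58 TPM (-0.96), and the other atypical kinase gene PRKCZ from 13.4 to 6.91 TPM (-0.86). PARD6A lay below 1 TPM in every OGT library, so it passed the filter only through the control libraries. ARHGEF2, the most abundant of the list, had means of 129 and 147 TPM and did not pass (0.19, limma adjusted p = 0.0768). With control replicate 3 left out it was called (0.25, limma adjusted p = 0.0298), and it turned to -0.20 after median centring.

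CDH2 (ENSG00000170558, chr18:27950966-28177446, minus strand) encodes N-cadherin, the calcium-dependent adhesion molecule of adherens junctions. It measured 18.82, 17.53 and 20.53 TPM in control and 47.2, 53.12 and 45.77 TPM in OGT libraries. Every OGT library lay above the highest control value. CDH2 rose by 1.32 on the log2 scale (SE 0.0924, limma adjusted p = 1.22e-04), above 96.3% of tested genes. Genes of at most 45% GC, among them CDH2, had a median change of 0.70. After the GC and length correction described below the change of CDH2 was 0.67. E-cadherin (CDH1) was listed at 0 in 5 libraries and at 0.2 TPM in OGT replicate 3. Among CDH1 to CDH4, CDH2 held 82.1% ± 2.58 of the summed TPM in control and 88.8% ± 1.14 in OGT cells. That share leaves out the other cadherins. CDH13, mentioned after its values were seen, stood above CDH2 in both groups, at 39.4 ± 7.51 and 59.2 ± 4.35 TPM. CDH13 was called higher (log2 change 0.59, limma adjusted p = 0.0113), but not after the GC and length correction described below (-0.15, limma adjusted p = 0.485).

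Of 39 other adherens junction genes 19 were tested, 12 rose and 0 fell (limma, 0 also at an unadjusted p below 0.05), with a median of 0.56. The shares over all tested genes were 39.1% higher and 9.7% lower, with a median of 0.30. β-catenin (CTNNB1), which binds the cadherin tail, rose from 63.4 ± 1.78 to 129 ± 5 TPM (log2 change 1.01, limma adjusted p = 4.68e-05). α-catenin (CTNNA1), which links that complex to actin, rose from 142 ± 11 to 218 ± 8.94 TPM (0.61). Vinculin (VCL) rose from 23.9 to 52.4 TPM (1.10), and the actin-binding gene LIMA1 from 6.57 to 18.5 TPM (1.37).

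The desmosomal members were scarce. JUP (ENSG00000173801, chr17:41754604-41786931, minus strand), which encodes plakoglobin, measured 0.54, 2.96 and 1.48 TPM in control and 0.68, 0.74 and 0.32 TPM in OGT libraries. Control replicates 2 and 3 were higher than every OGT library, while control replicate 1 lay inside the OGT range. JUP was not tested. In the fit without a filter the log2 change was -0.66 (limma adjusted p = 0.31). The ratio of JUP to its relative CTNNB1 was 0.0259 ± 0.0184 in control and 0.00448 ± 0.00167 in OGT cells (exact permutation p = 0.1, two-sided). The groups did not overlap, and the log2 difference of -2.31 moved to -1.76 or -2.95 when 1 library was left out. JUP alone did overlap, while the denominator CTNNB1 rose (log2 change 1.01, and 0.28 after the GC and length correction described below). The ratio has no pseudocount and rests on JUP values mostly below 1 TPM, so it does not measure a loss of JUP. DSP (ENSG00000096696, chr6:7541575-7586717, plus strand), which encodes desmoplakin, lay between 0 and 0.05 TPM in all 6 libraries and was close to absent by this measure. Of 12 other desmosome genes 3 were tested. DSG2, the desmosomal cadherin of simple epithelia, rose from 4.36 ± 0.806 to 17.5 ± 3.46 TPM (log2 change 1.79, limma adjusted p = 4.04e-04), and PERP rose from 6.71 ± 0.311 to 17.1 ± 0.11 TPM (1.23). The plakophilin gene PKP3 fell from 14 ± 1.79 to 10.3 ± 0.494 TPM (-0.41). PKP3 was not called when control replicate 3, OGT replicate 1 or OGT replicate 2 was left out (adjusted p from 0.0738 to 0.0838).

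Among 21 regulators of epithelial and mesenchymal state 8 were tested, 6 rose and 1 fell, with a median of 0.61. All tested genes had a median of 0.30, with 39.1% called higher and 9.7% lower. SNAI2, a repressor of epithelial genes, rose from 11 ± 1.46 to 31.1 ± 1.01 TPM (log2 change 1.43, limma adjusted p = 1.72e-04), and ZEB2 rose from 1.92 to 6.75 TPM (1.43). KLF4 rose from 11 to 17.8 TPM (0.64) and FOXC2 from 3.68 to 5.9 TPM (0.56). ELF3, an epithelial ETS factor, was the one that fell, from 19.3 ± 2.86 to 7.35 ± 1.51 TPM (-1.28, limma adjusted p = 0.00101). ZEB1 rose from 0.46 to 1.36 TPM (0.71, adjusted p = 0.0353), a call not made when control replicate 1, control replicate 3, OGT replicate 1 or OGT replicate 2 was left out (adjusted p from 0.086 to 0.099). Its change was -0.074 after the GC and length correction described below. With a control mean of 0.46 TPM, ZEB1 could pass the filter only through the OGT libraries, and it is part of the 6 that rose. Leaving out any of the same 4 libraries also ended the call of FOXC2 (adjusted p from 0.0503 to 0.0817). The count of those that rose was 3 without control replicate 3, OGT replicate 1 or OGT replicate 2. The plot of the 8 lists sets each gene beside the median of all tested genes.

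**Figure D2:**
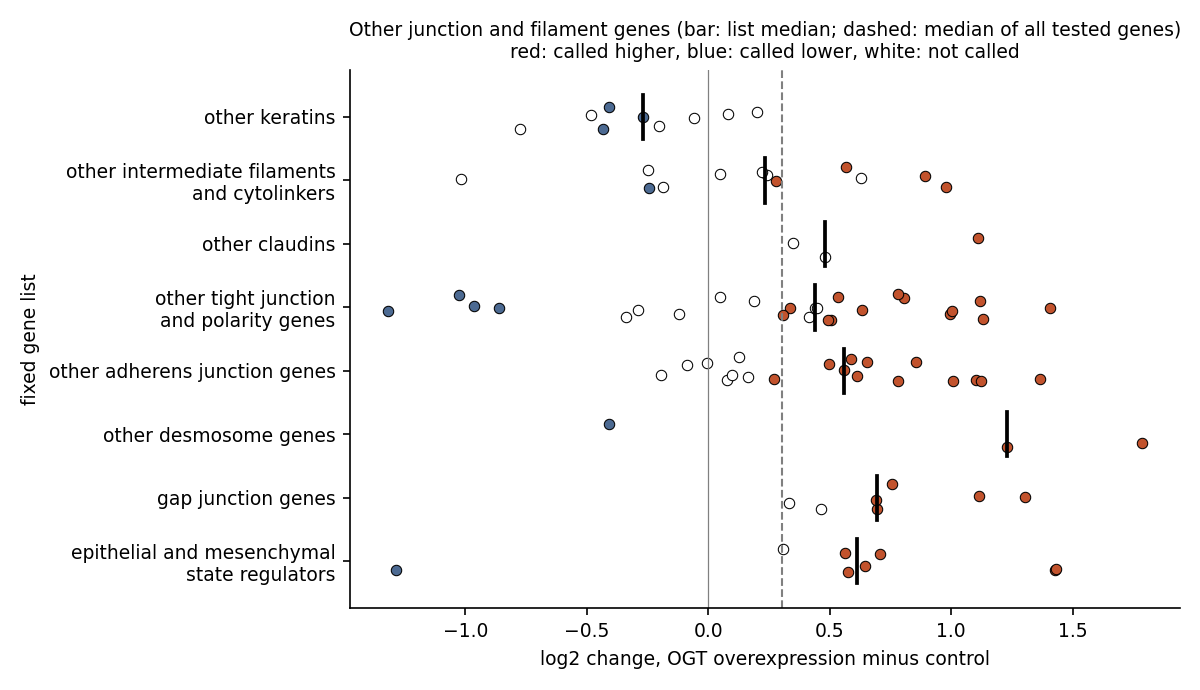
Log2 change (OGT minus control, horizontal axis) of the tested genes in each of 8 fixed lists (vertical axis), with red for called higher, blue for called lower and white for not called. Black bars are list medians and the dashed line is the median of all tested genes, 0.30. The other keratins centre on -0.27, and the adherens junction genes on 0.56.

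Change varied with the GC content and length of transcripts. The 3 genes that rose have reference transcripts of 41.5% (CLDN1), 44.8% (TJP1) and 44.97% GC (CDH2) and of 3481 to 7950 bases, and the 4 keratins ones of 53.4% to 62.9% GC and 1390 to 2437 bases. OCLN, at 39.9% GC and 6438 bases, was not called, with the interval given above. Across tested genes, which are not independent, the log2 change had a Spearman correlation of -0.47 with GC and of 0.39 with length. Of 3905 genes of at most 45% GC 55.7% were higher and 2.82% lower, and of 2037 genes above 60% GC 18.6% were higher and 20.6% lower. After subtraction of a spline trend on GC and length from every library, 28.8% of genes were called. The log2 change was then 0.62 for CLDN1 (limma adjusted p = 6.93e-04), 0.67 for CDH2 (0.00174), -0.29 for KRT18 (0.00503) and -0.38 for KRT19 (0.00185), so these 4 were still called. TJP1 was then 0.50 and not called (adjusted p = 0.0601). KRT8 was then -0.24 and called (adjusted p = 0.00295) with its longest transcript, of 2437 bases and 53.4% GC. With the principal transcript of 2126 bases and 59.1% GC, an alternative chosen after the data were seen, KRT8 was also called, at -0.11 (limma adjusted p = 0.0431, 32.2% of genes called). How far GC and length account for the changes as deposited was not tested beyond this correction.

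The scaling of the libraries moved the values. Quantile normalization brought the median change of all tested genes to 0.019, with 38% of genes called. Centring each library on its median brought it to -0.0855, with 39.6% called. CLDN1, TJP1 and CDH2 rose and KRT18 and KRT19 fell under both. KRT7 was called lower under both (-1.21 and -1.22), and of these 2 scalings only median centring called KRT8 (-0.48, against -0.052 after quantile normalization). Counts in the other lists fell from 43 genes higher to 17 to 19 under the scalings and the correction. Over all genes 2558 were higher and 2245 lower with quantile normalization, and 1937 higher and 3066 lower with median centring, against 4941 and 1227 as deposited. In the tight junction and polarity list the 13 higher and 4 lower became 4 and 7 with median centring, 6 and 6 with quantile normalization, and 4 and 4 with the GC and length correction. Among the other keratins 0 were higher under each, and 5, 4 and 2 were lower in the same order. Among the other filament and cytolinker genes these counts were 2 and 3, 3 and 2, and 2 and 2. Among the regulators they were 2 and 1, 2 and 1, and 4 and 1. VIM was still called with median centring, at 0.18. Several genes named above were not called under a scaling: YBX3 with median centring, and KLF4, FOXC2, ZEB1, SYNM, PATJ and PARD3 with both. CLDN12 was not called with quantile normalization. The correction ended the calls of CLDN12, PRKCI, PARD6A, CTNNA1, ZEB2, SYNM, LMNB2, KRT79 and ZEB1 (limma adjusted p from 0.0665 to 0.838). It also ended those of PALS1, PATJ and PARD3. CTNNA1 was then 0.10, while CTNNB1 was 0.28 and still called. In the adherens junction list 4 rose and 2 fell after median centring, 4 rose and 1 fell after quantile normalization, and 5 rose and 1 fell after the GC and length correction. The plot of changes under the 4 scalings and the plot against GC content show these values.

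**Figure D3:**
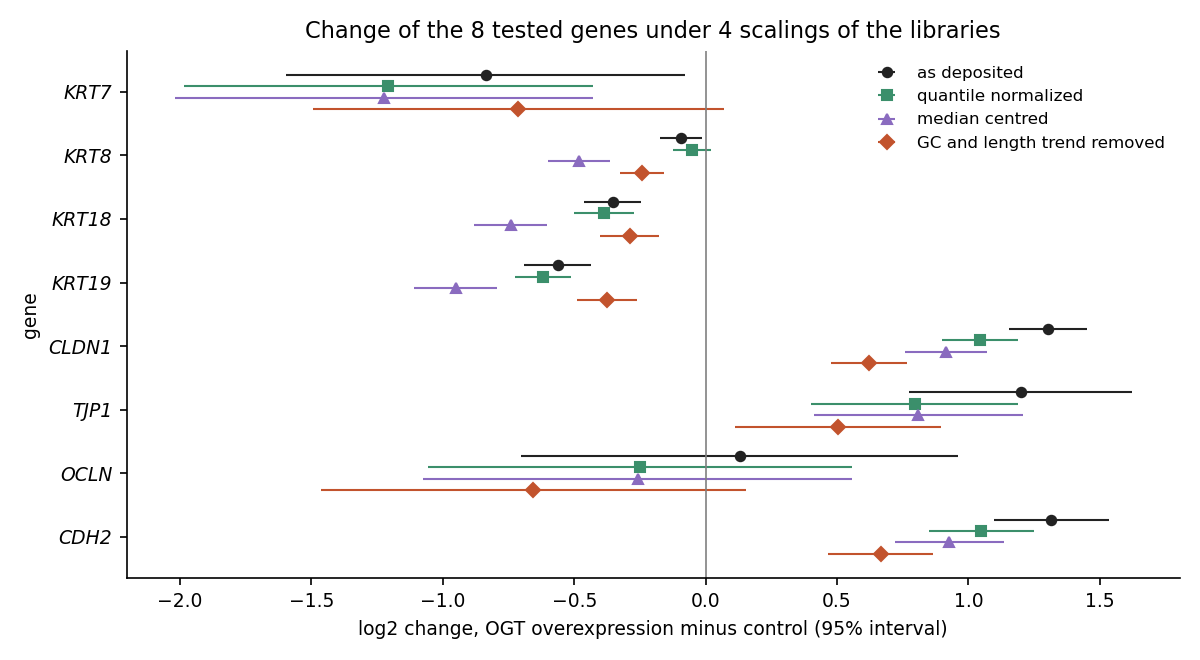
Log2 change (OGT minus control, horizontal axis) of the 8 tested genes (vertical axis) with 95% intervals from limma, under 4 scalings of the libraries. The estimates of CLDN1, TJP1 and CDH2 are above 0 and those of the 4 keratins below 0 under each of the 4, while the OCLN intervals cross 0.

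**Figure D4:**
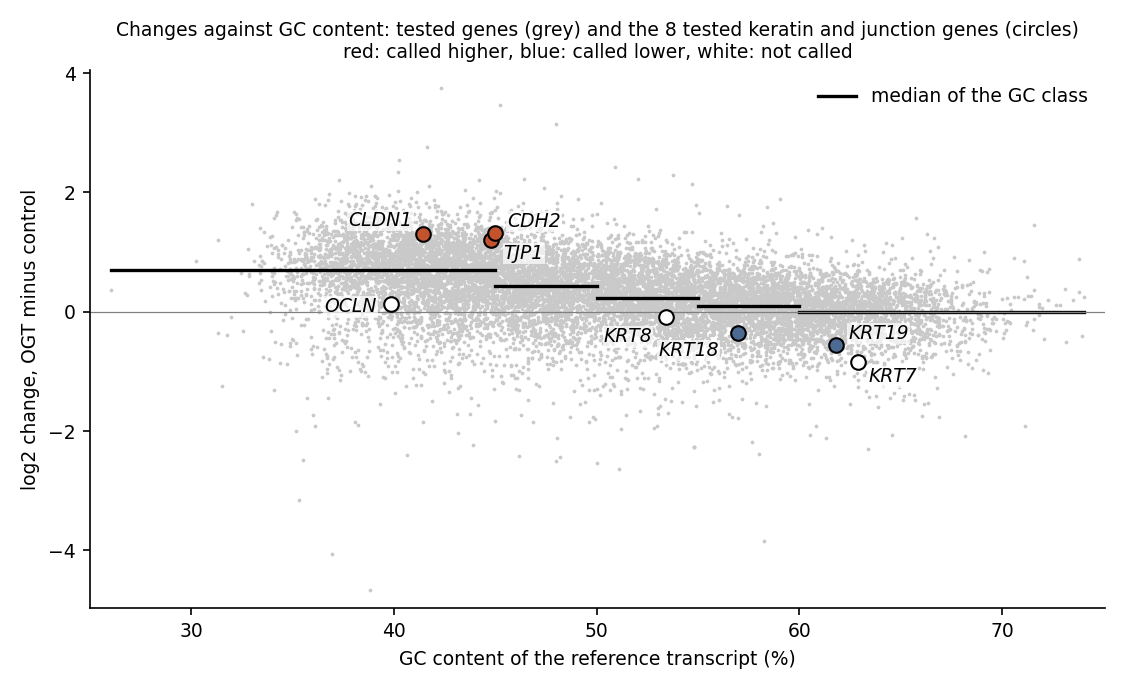
Log2 change (vertical axis) against GC content of the reference transcript in percent (horizontal axis) for tested genes in grey and the 8 keratin and junction genes as circles, red for called higher, blue for called lower and white for not called. Black lines are medians of 5 GC classes, from 0.70 at up to 45% GC to -0.00038 above 60%, and CLDN1, TJP1 and CDH2 lie above the line of their class.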

How the data were processed

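The builds listed in the submitters' processing notes are those of the mouse, GRCm38 and mm10, whereas the deposited gene identifiers are human. Which aligner, counter and annotation were used is not given in the sources used here. Libraries were made with a TruSeq RNA kit, per the labels' protocols. The values the authors deposited, 1 column per sample, are taken as TPM (scaled by transcript length and library total), from their sums and their dependence on length, since the header names no unit. Groups and replicate numbers came from the sample titles. Genes that reached 1 TPM in 3 or more samples were kept, and log2(TPM + 1) was fitted with limma 3.58.1 in R 4.3.3 (eBayes with trend and robust, two-sided, Benjamini-Hochberg), and the script was tested on simulated data. GC, length and coordinates came from GENCODE release 29 by Ensembl identifier, and 97.7% of tested genes had a transcript there (the longest, protein-coding where possible). The correction used natural splines with 4 degrees of freedom.

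The members and lists were chosen with earlier results of these data known. Named genes are all 10 members, OGT, and from each of 8 lists up to 4 genes in each direction with the smallest adjusted p, the most abundant one, and CDH1, CTNNB1, VIM, CTNNA1, SNAI2 and ZEB1; PAX8, CA9 and CD68 are marker checks, and HMGN2P5 was added for its position. Ratios were compared by two-sided exact permutation; the planned DSP to JUP ratio could not be tested because DSP was 0 in some libraries. Alternatives covered pseudocount, filters, scaling, GC and length, moderation, a replicate block and each replicate left out. No protein sequences were used here.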

Additional observations from a re-analysis of the deposited data

How the results depend on the processing

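CLDN1, CDH2, KRT18 and KRT19 kept their direction and call under all 15 alternatives run for each. The range with 1 library left out was 1.28 to 1.32 for CLDN1, 1.25 to 1.37 for CDH2, -0.39 to -0.32 for KRT18 and -0.60 to -0.52 for KRT19. Leaving out 1 library gave -1.11 to -0.58 for KRT7, -0.12 to -0.075 for KRT8, 1.07 to 1.36 for TJP1 and -0.23 to 0.34 for OCLN. KRT7 was called after quantile normalization (-1.21) and median centring (-1.22), and KRT8 after median centring (-0.48) and after the GC and length correction with the longest (-0.24) or principal (-0.11) transcript. TJP1 was not called after that correction (0.50, and 0.48 with principal transcripts). OCLN turned to -0.25 after quantile normalization, -0.26 after median centring, and -0.66 and -0.67 after the correction. Genes called higher numbered 4941 as deposited, 2558 with quantile normalization, 1937 with median centring and 1974 and 1918 after the correction. Genes called lower numbered 1227 as deposited, 2245 with quantile normalization, 3066 with median centring, which also gave 4 members lower, and 1582 and 1636 after the correction. In the 8 lists 43 genes were higher and 10 lower as deposited, with 19 higher and 15 lower under quantile normalization, 17 and 19 under median centring, and 18 and 11 (19 and 13 with principal transcripts) after the correction. Changes that turned sign, none of which was called, were KRT81 (0.029 and 0.0043), ARHGEF2 (-0.055 and -0.056) and ZEB1 (-0.074 and -0.095) under both corrections, GJC1 (-0.019) with principal transcripts, CLDN15 after quantile normalization (-0.020) and median centring (-0.038), and LMNB2 (-0.11) and ARHGEF2 (-0.20) after median centring. The cause was not tested.

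Same-numbered replicates showed no shared deviation: the correlations of their deviations were -0.0194, 0.00264 and 0.0166. These values cannot show whether such replicates were cultured or prepared together. With a replicate block CLDN1 was 1.30 (limma adjusted p = 0.00151), and 3 members were higher and 2 lower, as without it. The block ended the calls of KRT15 (limma adjusted p = 0.081), KRT79 (0.0775) and ZEB1 (0.0615). Over all genes the block gave 4382 higher and 1091 lower. Depth is unknown, and JUP and DSP are too low for a test.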

Other observations

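Connexin genes, whose products form gap junction channels between cells, and the pannexin genes listed with them were not described above. Of 23 such genes 7 were tested, 5 rose and 0 fell (limma, 0 also at an unadjusted p below 0.05), with a median log2 change of 0.70. Over all tested genes 39.1% were called higher and 9.7% lower, with a median of 0.30. PANX2, a pannexin channel gene, rose from 4.58 ± 0.533 to 12.8 ± 1.18 TPM (log2 change 1.30, limma adjusted p = 4.48e-04). Connexin 43 (GJA1) rose from 1.77 ± 0.486 to 4.95 ± 0.56 TPM (1.11), GJB2 from 9.76 to 16.3 TPM (0.69), PANX1 from 6.01 to 10.3 TPM (0.70) and GJC1 from 9.47 to 16.7 TPM (0.76). After the GC and length correction PANX2 was still called (1.24) and the other 4 were not (limma adjusted p from 0.133 to 0.983). After median centring or quantile normalization 2 of the list were called higher.

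Some junction and marker genes were high in 1 library alone, and were chosen for mention after their values were seen. CLDN18 was listed at 20.38 TPM in OGT replicate 3 and at 0.06 TPM or less in every other library. CDH6, a cadherin of the kidney tubule, was at 28.69 TPM in control replicate 2, against 2.69 to 7.6 TPM in the rest. PTPRC was at 12.23 TPM in control replicate 1, against at most 0.07 TPM in the rest.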
